A study of Mus musculus with 3 samples.

Results

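Chromatin modifiers and remodelers were examined in endothelium from glomeruli of adult mice, the capillary tufts of the kidney filter. The members were chosen by gene symbol, with earlier results of these data known. The members included histone deacetylases, sirtuins, histone acetyltransferases, DNA methyltransferases and Tet enzymes, SWI/SNF-related and CHD remodelers, and bromodomain proteins. The members also included Polycomb repressive complex 2 (PRC2), histone demethylases and histone methyltransferases. They comprised 90 genes of 19938, measured by 131 of the 21789 probe sets that name a single gene. For 79 members there was 1 probe set, and 11 had several, with 30 for Chd7 and at most 3 for any other member.

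The glomerular endothelial cells (GEC) came from adult mice carrying the transgene Tg(TIE2GFP)287Sato, on a mixed background that is mainly CD-1, with sex given as unknown. In these mice the Tie2 (Tek) promoter drives green fluorescent protein. This promoter is active in endothelium and also in some hematopoietic cells, so fluorescence alone does not define an endothelial cell. Cortical glomeruli were sieved and dissociated, and fluorescent cells were sorted. Each of the 3 arrays, replicates 1, 3 and 5, held RNA of 1 kidney that was not pooled. All 3 form 1 group with no other cell type, genotype or treatment beside it. A signal could therefore be tested against a fixed level but not between conditions.

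Chromatin modifiers set which stretches of DNA can be read. Acetyltransferases add acetyl groups to histones and loosen chromatin, deacetylases remove them, and methyltransferases and demethylases write and erase histone methyl marks that can favour or oppose transcription. DNA methyltransferases mark CpG dinucleotides, Tet enzymes oxidise that mark, and remodelers of the SWI/SNF and CHD families use ATP to move or evict nucleosomes. In endothelium such enzymes are known to take part in vessel development and in the response to flow and inflammation.

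Promoters of 4 members are shown as examples of CpG-dense promoters on either side of the level of 100 and of a CpG-poor one. The sequences are the 250 bases before the transcription start in RefSeq on GRCm38.p6, written from 5′ to 3′ on the strand of the gene, with each CpG in capitals. Crebbp and Hdac2 were called above the level of 100, and Tet2 and Smarca1 below it.
Crebbp (chr16:4213405-4213654, minus strand): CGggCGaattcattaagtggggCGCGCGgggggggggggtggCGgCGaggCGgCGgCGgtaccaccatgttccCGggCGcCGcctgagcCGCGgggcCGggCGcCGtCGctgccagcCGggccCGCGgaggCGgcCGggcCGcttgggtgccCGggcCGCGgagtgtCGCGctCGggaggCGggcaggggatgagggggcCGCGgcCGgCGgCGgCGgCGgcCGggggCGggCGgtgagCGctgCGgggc
Hdac2 (chr10:36974294-36974543, plus strand): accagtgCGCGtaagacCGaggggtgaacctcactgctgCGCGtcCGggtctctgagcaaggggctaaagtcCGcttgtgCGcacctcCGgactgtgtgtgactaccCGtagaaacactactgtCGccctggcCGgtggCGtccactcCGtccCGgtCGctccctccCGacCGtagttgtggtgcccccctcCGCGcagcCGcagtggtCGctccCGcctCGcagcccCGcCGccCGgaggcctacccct
Tet2 (chr3:133544391-133544640, minus strand): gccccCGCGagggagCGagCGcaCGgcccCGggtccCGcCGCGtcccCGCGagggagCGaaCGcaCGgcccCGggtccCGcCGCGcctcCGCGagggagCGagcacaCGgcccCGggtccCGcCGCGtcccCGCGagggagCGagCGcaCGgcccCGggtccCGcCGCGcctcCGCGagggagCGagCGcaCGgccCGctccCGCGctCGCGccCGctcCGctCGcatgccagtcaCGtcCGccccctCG
Smarca1 (chrX:47892614-47892863, minus strand): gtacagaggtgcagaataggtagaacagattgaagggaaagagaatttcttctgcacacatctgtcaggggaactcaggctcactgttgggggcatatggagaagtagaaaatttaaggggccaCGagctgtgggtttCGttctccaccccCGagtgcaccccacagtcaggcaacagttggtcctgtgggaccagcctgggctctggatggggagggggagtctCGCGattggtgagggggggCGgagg
The window of Crebbp held 44 CpG and that of Hdac2 held 27. Tet2, below the level, had 51 CpG, and Smarca1, also below it, had 6.

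The 3 arrays had like distributions, with medians over the single-gene probe sets between 5.02 and 5.03 on the log2 scale. Values were the same on all 3 arrays for 54.1% of them. The label of the cells was set beside marker genes, in lists chosen with earlier results of these data known. Of the endothelial markers, Tek has the promoter used for sorting, and the study reported Ehd3 as raised in GEC. The calls of Tek and Ehd3 are therefore no independent check. All 10 endothelial markers were called above the level, with means from 8.59 to 12.54, where 13.9% of all genes were above. All measured markers of podocytes (4 genes), mesangium and smooth muscle (6), proximal tubule (6), distal nephron (5) and leukocytes (6) were below the level. Of all genes 73.8% were below, and a call below the level does not mean that no transcript was detected. The summed linear signal of the endothelial markers was 18372, 12116 and 20878 on replicates 1, 3 and 5. In RNA of a cell population, a lower share of cells with a transcript cannot be told apart from less of it per cell.

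Levels below are deposited log2 signals, with means ± SD over the 3 arrays (n = 3). A level of 100, or 6.64 on the log2 scale, is the number the study used as its filter on raw values. Each mean was compared with it by limma's moderated two-sided test. P-values were adjusted after Benjamini and Hochberg for all 21789 probe sets, and those under 0.05 were called. The p-values rest only on spread between these 3 arrays, pooled in part over the 4406 probe sets whose 3 values all differ. For a probe set identical on all arrays, the test takes its spread from those other probe sets alone. A signal also depends on the probes of its set, so levels of single genes were not set against each other, and medians over many probe sets are given as descriptions only.

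Of the 131 member probe sets, 36 (27.5%) exceeded the level, 67 (51.1%) lay below it and 28 (21.4%) were called neither. Over all single-gene probe sets, 15.8% were called above and 72.5% below. Each class count below is to be read beside these shares, and no class was tested against them. Without the 30 probe sets of Chd7, 35 of 101 (34.7%) were above and 46 (45.5%) below. Counted by gene, 29 of 90 (32.2%) had every probe set above, where the share over all genes was 13.9%, and 38 (42.2%) had every probe set below, where it was 73.8%. A further 16 genes were called neither, and the probe sets of 7 (Chd6, Chd7, Tet1, Tet3, Eed, Setd1b and Setd3) were called differently. The median of the members was 6.05, and that of all single-gene probe sets 5.04. Among probe sets exceeding 28.9, a level set from olfactory receptor genes, 34 of 108 members (31.5%) were above and 43 (39.8%) below, where all such probe sets had 28.3% and 48%. Among probe sets with 3 distinct values the order of the shares above turned, with 8 of 32 members (25%) and 36.3% of all. With limma's default prior, Sirt1, Chd3, Kdm3a, Setd1a and Smarcc1 moved from neither to above. Kat5, Brd3, Ezh2 and a probe set each of Chd6, Chd7 and Setd1b moved from neither to below. Smarcb1 and Kdm1a moved from above to neither, and 3 probe sets of Chd7 from below to neither. That prior also draws on the 54.1% of probe sets identical on all arrays. The plot of member levels by class shows the values on each array.

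**Figure D1:**
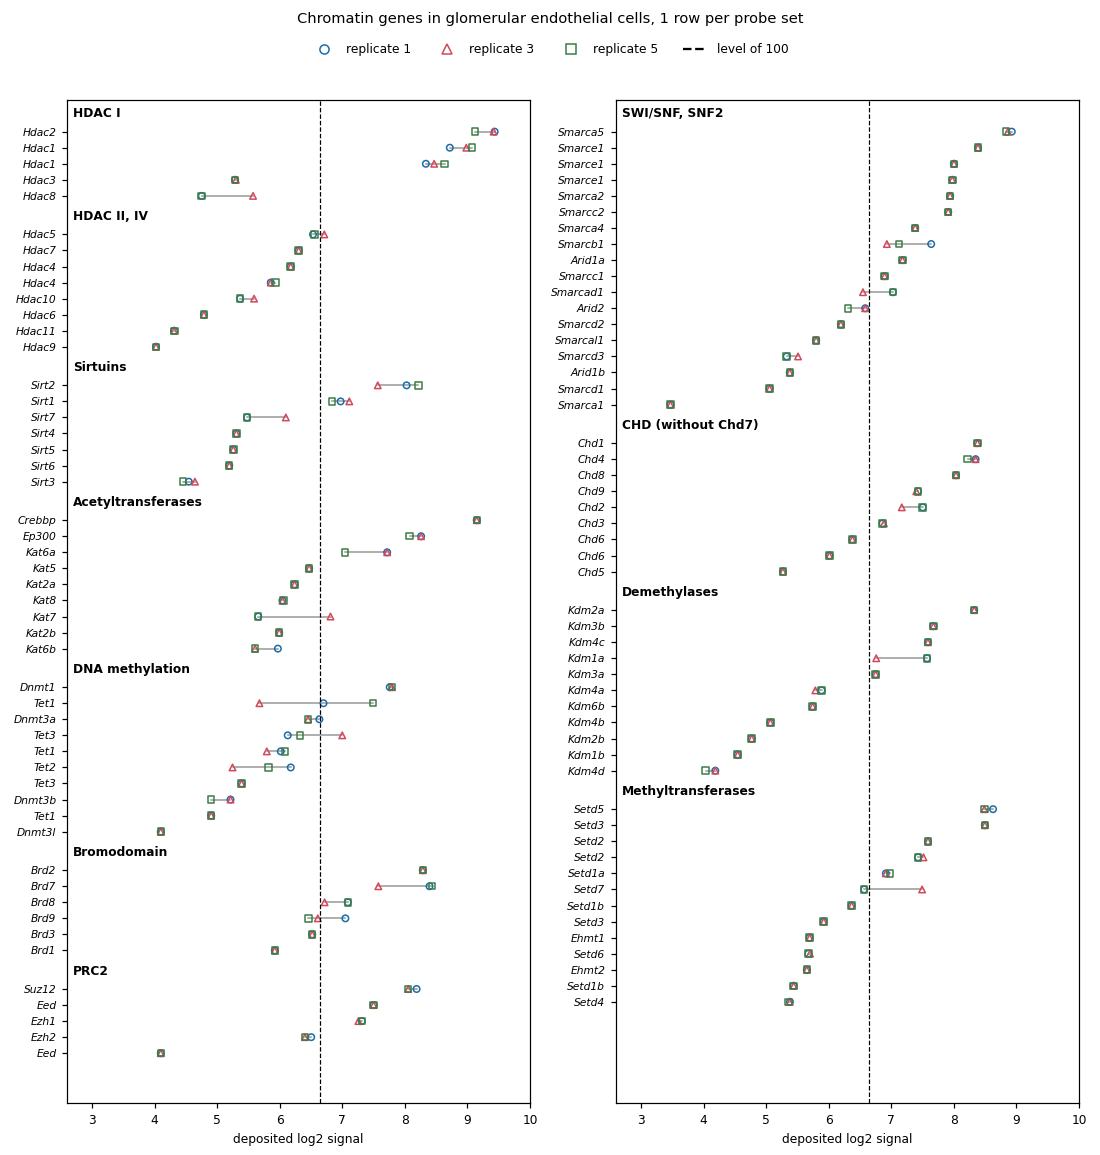
Deposited log2 signal of the 101 member probe sets other than those of Chd7, 1 row per probe set, on replicate 1 (circles), 3 (triangles) and 5 (squares), by role class, with the level of 6.64 dashed. In all, 35 of the 101 (34.7%) were called above the level, where 15.8% of all single-gene probe sets were.

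The class I deacetylases, of which Hdac1 and Hdac2 serve the NuRD, SIN3 and CoREST corepressor complexes, split between called genes on either side. Hdac2 had 9.43, 9.42 and 9.12 on replicates 1, 3 and 5, a mean 6.40-fold over the level (adjusted p = 0.000112). Its close relative Hdac1 had 8.72, 8.98 and 9.07 with the first of its probe sets and 8.33, 8.47 and 8.64 with the other (adjusted p = 0.000174 and 0.000288). On every array both genes lay over the level, and signal shared by Hdac1 with its annotated pseudogene copy was not tested. Hdac3, the catalytic subunit of the NCoR and SMRT complexes, had 5.29, 5.30 and 5.29 and was called below (adjusted p = 0.000521). Hdac8, which deacetylates the cohesin subunit Smc3, had 4.75, 5.57 and 4.75 and was also below (adjusted p = 0.00264).

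None of the 8 probe sets of class II and IV deacetylases was called above the level, 7 were below and 1 was neither. Of all single-gene probe sets, 15.8% were above and 72.5% below. Hdac9, a class IIa enzyme that binds MEF2 factors, had 4.02 on each array, and Hdac11, the sole class IV enzyme, had 4.31, 4.31 and 4.32. Hdac5, a class IIa enzyme exported from the nucleus when phosphorylated, had 6.53, 6.71 and 6.56, on both sides of the level, and was called neither (6.60 ± 0.10, adjusted p = 0.747). Hdac7, known for its part in endothelial integrity, had 6.30 on each array. Its call below rests close to the threshold, with adjusted p = 0.0495 and values up to 0.0802 under other settings at the same level. The means of the remaining probe sets were 6.17 and 5.88 for Hdac4, 5.44 for Hdac10 and 4.79 for Hdac6, the tubulin deacetylase, all below.

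Of the sirtuins, NAD-dependent deacylases, only Sirt2, a mostly cytoplasmic tubulin deacetylase, was called above the level, with 8.03, 7.57 and 8.22 (7.94 ± 0.33, adjusted p = 0.00262). Sirt1, the nuclear sirtuin studied in vascular ageing, had 6.97, 7.11 and 6.83. All 3 values were over the level, but the mean of 6.97 ± 0.14 did not pass the test (adjusted p = 0.0737). The call turned to above in 4 of 10 other settings at the same level, over which the adjusted p ran from 0.0228 to 0.122. The mitochondrial sirtuins Sirt3 (4.55 ± 0.10), Sirt4 (5.31) and Sirt5 (5.26) were below. Sirt3 had 4.55, 4.64 and 4.45, and Sirt6, a chromatin-bound sirtuin, had 5.19 on each array. Sirt7, the nucleolar sirtuin, was below with a mean of 5.68 ± 0.36.

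Among the acetyltransferases, 3 of 9 probe sets passed above the level, 4 passed below it and 2 were neither. Crebbp, the coactivator CBP, had 9.15 on each array, 5.67-fold over the level (adjusted p = 9.31e-05). Its paralogue Ep300 (p300) had 8.26, 8.26 and 8.08 (adjusted p = 0.000406). Kat6a, a MYST family enzyme, had 7.72, 7.72 and 7.04 (adjusted p = 0.0149), and its values lay over the level on each array. The call for Kat6a was lost without replicate 1, with adjusted p = 0.052, and over the settings at the same level its adjusted p ran from 0.00393 to 0.052. The GCN5 and PCAF genes Kat2a (6.24, adjusted p up to 0.0518 under other settings at the same level) and Kat2b (5.99 on each array) were below, as were Kat8 (6.05), which acetylates H4K16, and Kat6b, with 5.97, 5.60 and 5.60. Kat5 (Tip60) had 6.47 on each array and was called neither (adjusted p = 0.225). Kat7 (HBO1), an H3K14 acetyltransferase, had 5.66, 6.81 and 5.66, over the level on replicate 3 alone, and was also neither (adjusted p = 0.12).

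In the DNA methylation class, the maintenance enzyme Dnmt1 was called above the level, with 7.76, 7.79 and 7.79 (adjusted p = 0.000951). The de novo enzyme Dnmt3a had 6.63, 6.45 and 6.45, just under the level, and was called neither (adjusted p = 0.37). The other de novo enzyme, Dnmt3b, had a mean of 5.11 ± 0.18 and its cofactor Dnmt3l had 4.10 on each array, and both were below. Tet2 was called below with 6.17, 5.24 and 5.82 (adjusted p = 0.0188), and the call was lost without replicate 5, with an adjusted p of 0.0531 that was the highest of a range from 0.0138. One Tet1 probe set had 6.70, 5.67 and 7.49, a 3.52-fold range, and was called neither, whereas the others, with 6.02, 5.79 and 6.08 and with 4.90 on each array, were below. Tet3 likewise had a probe set with 6.13, 6.998 and 6.32 that was neither and another with 5.39 on each array that was below. No Tet probe set was called above the level.

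The SWI/SNF and SNF2 family had 9 of 18 probe sets above the level, 6 below and 3 neither. Smarca5, the SNF2H ATPase of ISWI complexes, had 8.93, 8.86 and 8.83 (adjusted p = 0.000123). The core subunit Smarce1 (BAF57) had 8.39, 8.003 and 7.98 by its 3 probe sets, each the same on all arrays. Both genes have an annotated pseudogene copy. The alternative ATPases of the SWI/SNF complex, Smarca2 (Brm, 7.94) and Smarca4 (Brg1, 7.38), were both called above, as were the scaffold Smarcc2 (7.91) and Arid1a (7.18), a DNA-binding subunit of the BAF form. Smarcb1, a core subunit, had a mean of 7.23 ± 0.37 and an adjusted p of 0.0416. Its call above was kept in 2 of 10 other settings at the same level, over which the adjusted p ran from 0.0195 to 0.0779. Smarcc1 (BAF155) had 6.89 on each array and was called neither (adjusted p = 0.111).

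Below the level were all 3 Smarcd genes, alternative BAF60 subunits, with Smarcd1 at 5.05 on each array, Smarcd2 at 6.19 and Smarcd3 at 5.39 ± 0.10. Arid1b, the alternative to Arid1a, was below with 5.38. Arid2, a subunit of the PBAF form, had 6.58, 6.58 and 6.31 and was neither. Smarca1, the SNF2L ATPase, had 3.47 on each array (adjusted p = 6.9e-05), and the annealing helicase Smarcal1 had 5.80. Smarcad1, a remodeler related to these ATPases, had 7.03, 6.55 and 7.03, on both sides of the level, and was neither.

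**Figure D2:**
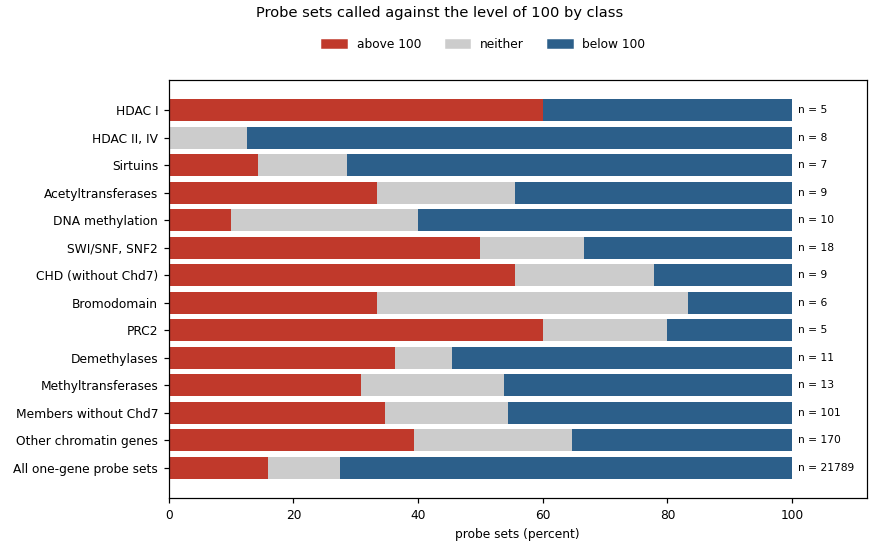
Percent of probe sets called above (red), neither (grey) or below (blue) the level of 100, by role class with Chd7 left out, and for all members without Chd7, the other chromatin genes and all single-gene probe sets, with n at the right. The SWI/SNF and SNF2 family had 9 of 18 above, and the class II and IV deacetylases 0 of 8, where 15.8% of all single-gene probe sets were above.

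Of the CHD remodelers, 5 of 9 probe sets other than those of Chd7 exceeded the level, 2 lay below it and 2 were neither. Chd1, which binds H3K4 methylation, had 8.38 on each array. Chd4, the ATPase of the NuRD complex, had 8.35, 8.35 and 8.22 (adjusted p = 0.000298). Chd8, which acts on beta-catenin targets, had 8.03 on each array. Chd2 (7.39 ± 0.19) and Chd9 (7.42 ± 0.02) were also above. Chd3, the alternative NuRD ATPase, had a mean of 6.87 ± 0.01 and was neither (adjusted p = 0.141). Chd5, known for its expression in neurons, was below with 5.27. The probe sets of Chd6 were called neither, with 6.38 on each array, and below, with 6.01 on each array.

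Chd7, a remodeler of neural crest and heart development, was measured by 30 probe sets, of which 1 was called above, 21 below and 8 neither. The probe set called above had 8.16, 7.92 and 7.55 (adjusted p = 0.00264). The lowest had 3.90, 3.38 and 3.38, and the next 3.62 on each array, and all 12 that were identical on the arrays were called below. These probe sets answer to 1 gene and are not replicates. Between arrays 18 of the 30 differed, and 13 of these (72.2%) were highest on replicate 1 alone and 0 were lowest there. Of all single-gene probe sets that differed, 20.8% were highest and 21.8% lowest on replicate 1 alone. The widest range was that of a probe set with 7.45, 2.63 and 3.56, or 28.2-fold. The next had 7.81, 3.84 and 4.42, then 8.11, 5.07 and 5.61, then 6.66, 4.60 and 4.21. In each of these, replicate 1 lay over the level and the other arrays under it. Ranges from 2.34-fold to 4.68-fold were found for probe sets with 8.38, 6.41 and 6.15, with 5.80, 5.41 and 3.93, with 8.40, 7.09 and 7.01, and with 5.19, 3.97 and 4.17. A probe set called neither had 6.58, 5.80 and 5.45, a 2.19-fold range. On replicate 1, 7 Chd7 probe sets lay over the level, whereas 2 did so on replicate 3 and 2 on replicate 5.

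Not every wide range of Chd7 ran the same way. Of its 10 probe sets that differed over 2-fold, 9 were highest on replicate 1. The other had 4.24, 3.83 and 6.20, and was highest on replicate 5. The summed linear signal of the markers of mesangium and smooth muscle was also highest on replicate 1, with 209, 161 and 162 on replicates 1, 3 and 5, and all 6 were called below the level. Most of that difference was in Itga8, with 6.08, 4.94 and 4.75. Pdgfrb was also highest on replicate 1, with 4.51, 4.13 and 4.03. Acta2 and Myh11 were the same on all arrays, Des had 4.60, 4.52 and 4.60, and Tagln was highest on replicate 5. The leukocyte sum was 164, 161 and 158. The part of such cells in the Chd7 signal was not tested.

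**Figure D3:**
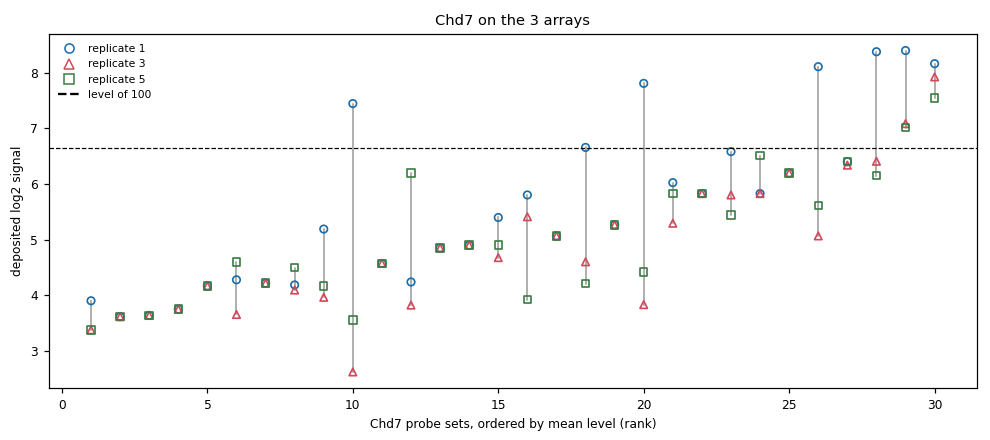
Deposited log2 signal of the 30 Chd7 probe sets, ordered by mean, on replicate 1 (circles), 3 (triangles) and 5 (squares), with a line over the range of each and the level of 6.64 dashed. The highest value lies on replicate 1 alone for 13 of the 18 probe sets that differed between arrays.

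Bromodomain proteins read acetylated histones. Brd2, a BET family member, had 8.29 on each array, and Brd7, a PBAF subunit, had 8.39, 7.57 and 8.43, lowest on replicate 3 (adjusted p = 0.00028 and 0.00373). The BET protein Brd3 had 6.52 on each array, Brd8 of the Tip60 complex had 7.09, 6.72 and 7.09, and Brd9 of the non-canonical BAF complex had 7.05, 6.61 and 6.46. These 3 were called neither. Brd1, a scaffold of MYST complexes, was below with 5.92 on each array.

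PRC2 trimethylates H3K27 and silences developmental genes. Its core subunit Suz12 was called above the level with 8.19, 8.05 and 8.05 (adjusted p = 0.00046). Of the alternative catalytic subunits, Ezh1, the form typical of resting cells, was called above with 7.31, 7.26 and 7.31 (adjusted p = 0.00669). Ezh2, the form typical of dividing cells, had 6.50, 6.40 and 6.40 and was called neither (6.44 ± 0.06, adjusted p = 0.17). With limma's default prior Ezh2 was called below (adjusted p = 0.0117), and over the settings at the same level its adjusted p ran from 0.00725 to 0.236. The Eed probe sets disagreed, with 7.50 on each array by the one and 4.10 by the other. Of 9 measured marker genes of dividing cells, 8 were below the level and 1, Pcna, was above it, where 73.8% of all genes were below. Whether cell division bears on the Ezh1 and Ezh2 values was not tested.

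Of the demethylases, 4 of 11 probe sets exceeded the level, 6 lay below it and 1 was neither. Kdm2a, an H3K36 demethylase that binds CpG islands, had 8.33 on each array. Kdm3b and Kdm4c, which act on H3K9, had 7.67 and 7.59 on each array. Kdm1a (LSD1), which acts with CoREST, had 7.57, 6.76 and 7.57. Its adjusted p was 0.0481, and the call above was kept in 1 of 9 other settings at the same level, that without replicate 3, with a range of adjusted p from 0.00227 to 0.148. Kdm3a, also an H3K9 demethylase, had 6.75 on each array and was neither (adjusted p = 0.43). Kdm1b had 4.55 on each array and Kdm4d had 4.19, 4.19 and 4.03, and both were below. The H3K27 demethylase Kdm6b (5.74), Kdm2b (4.77), Kdm4a (5.85 ± 0.06) and Kdm4b (5.07) were below as well.

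Of the methyltransferase probe sets, 4 of 13 were called above, 6 below and 3 neither. Setd2, which trimethylates H3K36, was called above by both of its probe sets, with 7.59 on each array and with 7.43, 7.52 and 7.43. Setd5 had 8.63, 8.49 and 8.49 (adjusted p = 0.000204). Setd3, an actin histidine methyltransferase, had 8.50 on each array by the probe set called above and 5.92 by the one called below. The H3K4 methyltransferase Setd1a had 6.91, 6.91 and 6.98 and was neither (adjusted p = 0.0767). Its paralogue Setd1b had 6.37 on each array by the probe set called neither and 5.44 by that called below. Setd7, an H3K4 monomethyltransferase, had 6.57, 7.49 and 6.57, highest on replicate 3, and was neither. Ehmt1 (GLP) and Ehmt2 (G9a), which form the H3K9 dimethylating enzyme, were both below, with 5.70 and 5.65. Setd4 had 5.38, 5.38 and 5.35, and Setd6 a mean of 5.68 ± 0.01, and both were below.

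Of the 131 member probe sets, 64 (48.9%) were identical on all arrays, where 54.1% of all single-gene probe sets were. Why values of separate kidneys were identical was not tested, so this is not read as agreement between them. Over 2-fold between the highest and the lowest array, 12 (9.16%) differed, where 5.73% of all single-gene probe sets did so. Apart from the 10 of Chd7, these were the probe sets of Tet1 and Kat7 given above, so that without Chd7 the count was 2 of 101 (1.98%). The larger share among members was kept without replicate 3 (7.63%, all 2.18%) and without replicate 5 (6.87%, all 3.72%). It was also kept at 1.5-fold (21.4%, all 11.9%), at 3-fold (6.11%, all 2.39%) and under both other scalings. Without replicate 1 the member share was not larger, with 4 of 131 (3.05%), where all probe sets had 3.87%. Nor was it larger among probe sets over the level, with 2 of 47 (4.26%), where all had 13.87%. Only 12 of the 131 had values on both sides of the level. Replicate 3, on which the endothelial marker sum was lowest, was the lowest array alone for 23 of the 67 members that differed, and with Chd7 left out for 13 of 49, and the highest alone for 14 of those 49. Of all probe sets that differed, 27.4% were lowest and 31% highest on replicate 3 alone. With 1 array per kidney a difference between arrays has no test.

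**Figure D4:**
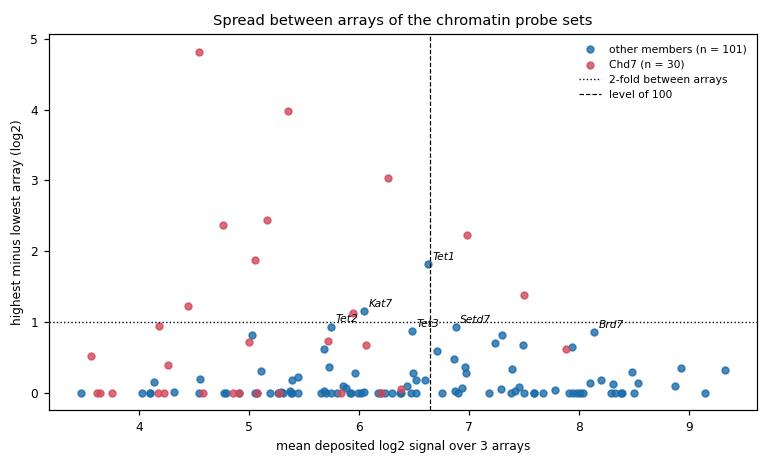
Range of each member probe set between the highest and lowest array, in log2 units, against its mean log2 signal, with Chd7 in red and other members in blue, a dotted line at 2-fold and a dashed line at the level. Apart from Chd7, 2 of 101 probe sets (Tet1 and Kat7) lie over the line.

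Promoters were compared over the 250 bases before the start, which the RefSeq table gave for 74 of the 90 genes (106 promoters). The median member promoter held 20 CpG, and the median over all 19116 promoters of tested genes was 11. At least 20 CpG were found in 51.9% of member promoters and in 25.7% of all. By call, the member medians were 21 for genes above the level, 17.5 for genes below and 23.5 for genes called neither. Over all genes these were 17, 8 and 16. The GC box GGGCGG, searched on both strands, was found in 64.15% of member promoters and in 45.56% of all. TATAAA was found in 2.83% of member promoters and 10.57% of all, and CCAAT in 30.19% and 34.57%. These are matches of letters and not measured binding sites, and a gene with several starts counts more than once.

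**Figure D5:**
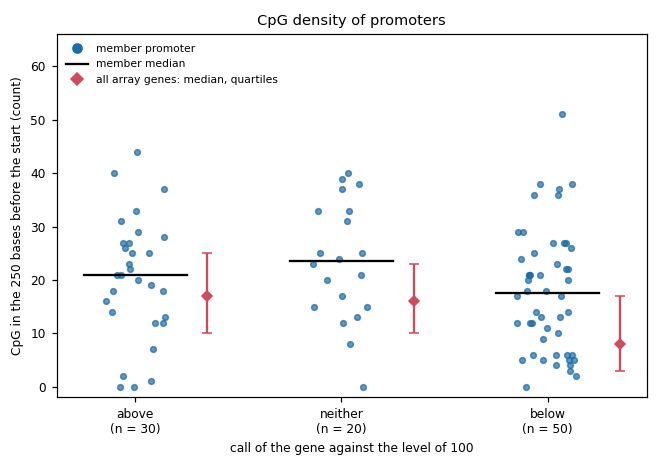
CpG count in the 250 bases before the start for each member promoter (points, with their median as a bar), by call of the gene, beside the median and quartiles over all genes (diamonds and bars). Genes whose probe sets were called differently are not shown. The median member promoter held 21 CpG for genes above the level and 17.5 for genes below it, and the medians over all genes were 17 and 8.

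Genes of the same pathways that are no members were counted from a list of partners and related enzymes. Of 148 such genes measured by 170 probe sets, 67 probe sets (39.4%) were called above, 60 (35.3%) below and 43 neither. All single-gene probe sets had 15.8% above and 72.5% below. Among corepressor genes, the methyl-CpG binding protein Mbd2 of NuRD had 10.47, 10.26 and 10.16. The Polycomb gene Phc3 had probe sets with 11.41, 10.45 and 11.05 and with 7.02, 7.02 and 6.98. The PBAF subunit Pbrm1 had 9.24, 10.13 and 10.44 by 1 of its probe sets, and the H3.3 deposition ATPase Atrx had 9.58 on each array. All of these were called above.

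Of the methyl-DNA readers and maintenance genes 1 of 9 probe sets (11.1%) was above and 5 (55.6%) below. Of the histone chaperones and architectural proteins 19 of 32 (59.4%) were above and 10 (31.3%) below. The shares of all single-gene probe sets were 15.8% and 72.5%. Uhrf1, which brings Dnmt1 to replicated DNA, had 4.29 on each array, beside the call of Dnmt1 above the level. Hells, a remodeler that aids DNA methylation, had 2.64, the H3K9 methyltransferase Suv39h2 had 3.75 and the histone chaperone Asf1b had 4.60, each the same on all arrays and called below. The neuronal SWI/SNF subunit Actl6b (4.27) and the testis bromodomain protein Brdt (3.72, 3.81 and 3.81) were below as well. The methyltransferase genes Kmt2e, with 9.93 on each array, and Kmt2d, with 8.96, 8.37 and 9.06 by 1 of its probe sets, were above, as were the demethylase genes Riox1 (9.99 ± 0.05) and Jmjd1c (8.99 ± 0.06 by 1 of its probe sets). The cohesin genes Smc1a (9.86 ± 0.01) and Smc3 (9.61 ± 0.21) were also above.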

How the data were processed

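RNA of sorted Tie2-GFP positive cells went through 1 round of amplification (NuGEN) onto Affymetrix Mouse Gene ST arrays, 1 kidney per array. The authors deposited 1 log2 signal per probe set and array. Affymetrix Expression Console is the tool given in the submitters' processing notes, and the study names RMA normalization for its own analysis, with a filter of 100 on raw values.

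Gene names came from the platform annotation, and probe sets naming 1 gene were used. An intercept-only model in limma 3.58.1 (R 4.3.3) tested each mean against log2 of 100. Because 54.1% of probe sets were identical on all arrays (within 1e-09), the variance prior was taken from the 4406 whose 3 values all differ, with an SD of 0.288 and 2.03 degrees of freedom. The fit was tested on simulated data. Alternatives changed the prior, level, scaling, features tested, unit counted and replicates.

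Values per array are given for, in each class, up to 4 members with the highest mean among those above, the 2 with the lowest mean and up to 3 called neither, for the 10 widest ranges, and for genes whose probe sets were called differently. Of the other chromatin genes, at most the 2 highest above and 2 lowest per class were named, and not all are printed. Members, classes and lists were chosen with earlier results of these data known.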

Additional observations from a re-analysis of the deposited data

How the results depend on the processing

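The level set the counts. Over 131 member probe sets, 63 were above a level of 50, 16 above a level of 200 and 95 above 28.9, a level that 95% of olfactory receptor probe sets do not exceed, against 36 at 100. Below these levels were 33, 92 and 13, against 67. Of the 67 called below 100, 35 were called above 28.9, so a call below 100 does not mean that no transcript was detected. Over all single-gene probe sets the calls above a level were 6238, 1819 and 9680 in the order 50, 200 and 28.9, against 3451, and those below 11978, 18366 and 7889, against 15803. At the level of 100, 33 of the 36 calls above, 61 of the 67 below and 8 of the 28 neither were the same under every prior, scaling, set of features tested and left-out replicate. The calls above that changed were Smarcb1, Kdm1a and Kat6a. Those below were Hdac7, Kat2a, Tet2 and 3 probe sets of Chd7. Restricted to the 32 member probe sets with 3 distinct values, 8 were above, 11 below and 13 neither, where all such probe sets had 36.3%, 34.1% and 29.6%. Among the 108 exceeding the olfactory receptor level 43 were below (39.8%, all 48%). Counted by gene, 38 of 90 were below by the highest probe set (42.2%, all 73.9%). By the mean of probe sets 44 were below (48.9%, all 74.7%) and 16 neither (17.8%, all 10.6%). Leaving out 1 replicate gave 33 to 38 above, 65 to 68 below, 26 to 32 neither and 4 to 10 over 2-fold, of 131. Among all single-gene probe sets, these settings gave 14.9% to 16.9% above, 71.4% to 73.1% below and 10% to 13.7% neither. The share of all over 2-fold was then 2.18% to 3.87%. At 1.5-fold 28 members differed between arrays (21.4%, all 11.9%), among probe sets over the level 2 did (4.26%, all 13.87%), and without Chd7 2 did (1.98%, all 5.69%), against 12. Leaving out Chd7, chosen after seeing the data, gave 35 above and 46 below, and leaving out genes with a pseudogene copy, also chosen then, gave 30 and 63.

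The sign of the difference from the level turned for some named members when the level moved, which follows from the level itself. In log2 units, against 200 the difference was -0.67 for Sirt1, -0.15 for Kat6a, -0.75 for Smarcc1, -0.78 for Smarcad1, -0.68 for Brd8, -0.94 for Brd9, -0.15 for Eed of mean 7.50, -0.35 for Ezh1, -0.058 for Kdm4c, -0.34 for Kdm1a, -0.89 for Kdm3a, -0.057 for Setd2 of mean 7.59, -0.19 for Setd2 of mean 7.46, -0.71 for Setd1a and -0.77 for Setd7. Against 50 it was 0.96 for Hdac5, 0.083 for Kat6b, 0.35 for Kat2b, 0.82 for Kat5, 0.87 for Dnmt3a, 0.84 for Tet3 of mean 6.48, 0.85 for Arid2, 0.28 for Brd1, 0.87 for Brd3, 0.79 for Ezh2, 0.72 for Setd1b of mean 6.37, 0.73 for Chd6 of mean 6.38, 0.37 for Chd6 of mean 6.01, 0.32 for Tet1 of mean 5.96 and 0.28 for Setd3 of mean 5.92. Against the olfactory receptor level it was 0.17 for Hdac8, 0.44 for Hdac3, 1.74 for Hdac5, 0.34 for Sirt6, 0.87 for Kat6b, 1.14 for Kat2b, 1.19 for Kat7, 1.61 for Kat5, 0.049 for Tet1 of mean 4.90, 1.66 for Dnmt3a, 1.63 for Tet3 of mean 6.48, 1.77 for Tet1 of mean 6.62, 0.20 for Smarcd1, 1.64 for Arid2, 1.09 for Chd7 of mean 5.95, 1.07 for Brd1, 1.66 for Brd3, 1.58 for Ezh2, 0.52 for Setd4, 0.59 for Setd1b of mean 5.44, 1.51 for Setd1b of mean 6.37, 0.19 for Chd7 of mean 5.05, 1.52 for Chd6 of mean 6.38, 1.16 for Chd6 of mean 6.01, 1.11 for Tet1 of mean 5.96, 0.53 for Tet3 of mean 5.39 and 1.07 for Setd3 of mean 5.92.

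No paired analysis was possible because the 3 arrays form 1 group. The number of arrays limits the precision, and probe sets with identical values on all arrays hold no spread of their own. The study set its filter of 100 on raw values, which need not be on this scale, and the sources used here do not say which arrays were normalized as a set. Pseudogene copies of Dnmt3a, Dnmt3b, Dnmt3l, Hdac1, Kat2b, Kat6b, Smarca5 and Smarce1 are annotated, and signal shared with them was not tested.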

Other observations

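The 3 probe sets that name Smarca5 together with Smarca5-ps and Gm13034 were left out of all counts because they name several genes. They had 8.94 on each array, 6.53, 6.90 and 6.53 on replicates 1, 3 and 5, and 8.80, 8.82 and 8.80.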
